A study of Mus musculus with 69 samples.

Results

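The genes described are 10 interferon-induced GTPases of the mouse, Gbp2, Gbp5, Gbp6, Gm12250, Ifi47, Irgm1, Irgm2, Igtp, Tgtp2 and Iigp1, among the 24309 gene symbols that the count tables share. They were selected on their measured counts: in memory CD8+ T cells, the difference between BBA and wild type (WT) cells was not the same with IL-15 as with IL-7. Values from those cultures are therefore a description, and tests were run only on other cells, other cultures and other genotype contrasts. Expression was measured by RNA-seq of poly(A)+ RNA in T cells sorted from pooled lymph nodes and spleens. WT mice carry all Stat5 alleles (Stat5a+/+ Stat5b+/+), AAB mice keep a single Stat5b allele (Stat5a-/- Stat5b+/-) and BBA mice keep a single Stat5a allele (Stat5a+/- Stat5b-/-). All alleles are germline, so every cell of the animal carries them, and the mice were adults. The 48 CD8+ libraries, 2 per group in 24 groups, come from naive cells (Tnv, CD44 low CD62L high), memory cells (Tcm, CD44 high CD62L high) and effector cells (Tem, CD44 high CD62L low). Libraries of Tnv and Tcm were made without cytokine (NC), with IL-7 and with IL-15, those of Tem without cytokine and with IL-15, in cultures of 12 to 16 h. The labels describe the NC cells as cultured too, whereas the study's text describes them as processed directly, so culture itself and cytokine cannot be told apart in comparisons with NC. The 15 CD4+ libraries are naive cells of the same genotypes without cytokine or with IL-7. In 4 further libraries AAB CD8+ cells, activated in vitro, carried a retrovirus with constitutively active STAT5A (CA-STAT5A) or an empty vector.

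Interferon-induced GTPases defend cells against pathogens that live in vacuoles. The guanylate-binding proteins (Gbp genes) and the immunity-related GTPases (Irgm1, Irgm2, Igtp, Iigp1, Tgtp2, Ifi47 and Gm12250, whose protein is also called Irgb10) gather on the vacuole membrane and help to break it. Irgm1, Irgm2 and Igtp form the regulatory branch that keeps the other IRG proteins off the cell's own membranes. Interferon-gamma induces them through GAS elements and through IRF1, and type I interferon acts through a complex that includes STAT2 and IRF9 and binds ISRE elements. IL-7 and IL-15 signal through the common gamma chain, JAK1 and JAK3, and mainly through STAT5, the transcription factor whose alleles differ between these mice.

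Of the 10 genes, 6 lie in 2 groups on mouse chromosome 11. In RefSeq on GRCm38.p6, Irgm1 (chr11:48865245-48871420, minus strand), Tgtp2 (chr11:49057196-49064212, minus) and Ifi47 (chr11:49076587-49096987, plus) form the first group. Gm12250 (chr11:58183843-58190198), Igtp (chr11:58199556-58207592) and Irgm2 (chr11:58214977-58222783), all on the plus strand, form the second. Gbp5 (chr3:142496934-142522344, plus) and Gbp2 (chr3:142620663-142638008, plus) are neighbours on chromosome 3 and Gbp6 (chr5:105270702-105295871, minus) is on chromosome 5, and the position of Iigp1 is not reported here. All 10 are protein-coding in RefSeq, but the GENCODE vM21 annotation lists Gm12250 as a processed pseudogene. In GENCODE the Irgm2 gene extends over Igtp. Tgtp2 has a near-identical copy, Tgtp1, that was at 0 counts in every library. The counting rule for such reads is not given in the sources used here, so reads of Irgm2, Igtp and Tgtp2 could have been lost or divided.

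The promoters are shown because interferon acts on such genes through GAS and ISRE elements, which were searched for here as letter patterns. RefSeq promoter sequence was examined for 8 of the 10 members. None was found for Gbp6, and Iigp1 was left out of the search, so these genes are named only. The 250 bases before each start were searched on both strands for an ISRE core (GAAA, any 2 bases, GAAA) and for a GAS core (TTC, any 3 bases, GAA). An ISRE core was present in 7 of the 8 members and in 2.98% of all 32851 promoters, a GAS core in 5 of the 8 and in 7.02% of all, and both in 5 of the 8 and in 0.332% of all. These are matches of letters, not measured binding. The members are interferon-induced genes by name, and the Igtp and Irgm2 sequences share a near-identical stretch. The counts are therefore no test, and the 8 promoters are not independent. The last 100 bases before the start are printed below in the direction of the gene on GRCm38.p6, with the matches in capitals, for Igtp (chr11:58199456-58199555, plus strand), Irgm2 (chr11:58214877-58214976, plus), Tgtp2 (chr11:49064213-49064312, minus), Gm12250 (chr11:58183743-58183842, plus), Irgm1 (chr11:48871421-48871520, minus) and Gbp2 (chr3:142620563-142620662, plus).
Igtp: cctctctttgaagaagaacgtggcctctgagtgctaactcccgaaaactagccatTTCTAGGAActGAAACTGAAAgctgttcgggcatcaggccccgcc
Irgm2: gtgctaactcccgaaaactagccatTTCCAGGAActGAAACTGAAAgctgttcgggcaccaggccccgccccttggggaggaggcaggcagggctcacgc
Tgtp2: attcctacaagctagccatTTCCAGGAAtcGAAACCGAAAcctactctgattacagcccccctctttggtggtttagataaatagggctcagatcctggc
Gm12250: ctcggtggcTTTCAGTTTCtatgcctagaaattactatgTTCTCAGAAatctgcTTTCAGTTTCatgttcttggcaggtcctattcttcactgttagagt
Irgm1: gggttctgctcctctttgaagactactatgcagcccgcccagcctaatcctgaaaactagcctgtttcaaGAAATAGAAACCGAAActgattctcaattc
Gbp2: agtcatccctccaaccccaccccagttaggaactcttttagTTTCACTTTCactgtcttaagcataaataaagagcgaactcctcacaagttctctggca
In Igtp, Irgm2 and Tgtp2 a GAS core was followed within 2 bases by an ISRE core, starting 45 and 34 bases before the gene in Igtp, 75 and 64 in Irgm2 and 81 and 70 in Tgtp2. Gm12250 held an ISRE core on each side of its GAS core. Irgm1 held 2 ISRE cores that overlap by 4 bases and no GAS core, and Gbp2 held 1 ISRE core. Gbp5, not printed, held GAS cores starting 245 and 52 bases and an ISRE core 165 bases before its start, and Ifi47 held neither in its window.

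Libraries held 5926139 to 25612758 counts on genes in the CD8+ set, 6705004 to 34118295 in the CD4+ set and 11020965 to 16516525 in the retrovirus set. Levels are CPM, counts scaled to library size with TMM factors within a set, so levels of different sets were scaled separately and no test was run across them. A gene was called when it passed 1.5-fold and an adjusted p of 0.05, and the share of all genes called is given beside each count of members. In such bulk libraries fewer cells that express a gene and less RNA per cell cannot be told apart. Each member had counts in every library. Stat5a was at 0.962 to 4.87 CPM in the 16 AAB CD8+ libraries against 32.3 to 107 in WT, and Stat5b at 48.6 to 93.6 in BBA against 163 to 351 in WT, as gene counts that do not separate functional from disrupted transcripts. In the CD8+ libraries the CD8 lineage genes Cd8a and Cd8b1 summed to 1212 to 3201 CPM. Some libraries stood apart. Cd4 reached 236 CPM in WT Tnv replicate 2 of the IL-15 culture, 6.50 in its replicate 1, and the lowest WT level of Stat5a was that of WT Tnv replicate 2 of the IL-7 culture. Xist and Y-linked genes marked all 6 Tnv libraries with IL-7 as male and all 6 Tnv libraries of each other culture as female, so sex and the IL-7 culture cannot be told apart in Tnv, while genotypes within a culture were of 1 sex there. In Tcm with IL-7, the culture used in the choice, both WT libraries were male and AAB and BBA each had 1 female and 1 male library, so sex was not balanced between the genotypes. The CD4+ libraries were male, and each retrovirus group had 1 of each. The retrovirus libraries went against their label: Cd8a was at 1.4 to 3.17 CPM and Cd3e, a subunit of the T cell receptor complex, at 2.79 to 14.8, while Ncr1, a receptor of NK cells, was at 1124 to 1453. They are called the libraries labelled CA-STAT5A and empty vector.

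Summed over the 10 genes, the levels showed where the genotypes parted. In Tnv without cytokine the sums were 1193 and 1118 CPM in WT, 2088 and 1689 in AAB and 2261 and 1690 in BBA. With IL-7 they were 1203 and 1380, 2302 and 1500, and 3288 and 3390. With IL-15 the order of WT and the mutants turned, with sums of 787 and 815 in WT, 611 and 611 in AAB and 635 and 527 in BBA. In Tem the sums were 794 and 833 in WT, 1250 and 1045 in AAB and 1049 and 1004 in BBA without cytokine. With IL-15 they were 1005 and 1242, 987 and 702, and 762 and 533, so that WT was lowest in the first culture and highest in the second. In CD4+ Tnv the sums were 996, 925 and 1083 in WT, 1717 and 1523 in AAB and 2160 and 2163 in BBA without cytokine. With IL-7 they were 861, 967 and 977, 1606 and 965, and 2707, 3464 and 2288. The highest library of the series, 3464 CPM, was a BBA CD4+ library with IL-7, and the lowest among the sorted cells, 527 CPM, a BBA Tnv library with IL-15.

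**Figure D1:**
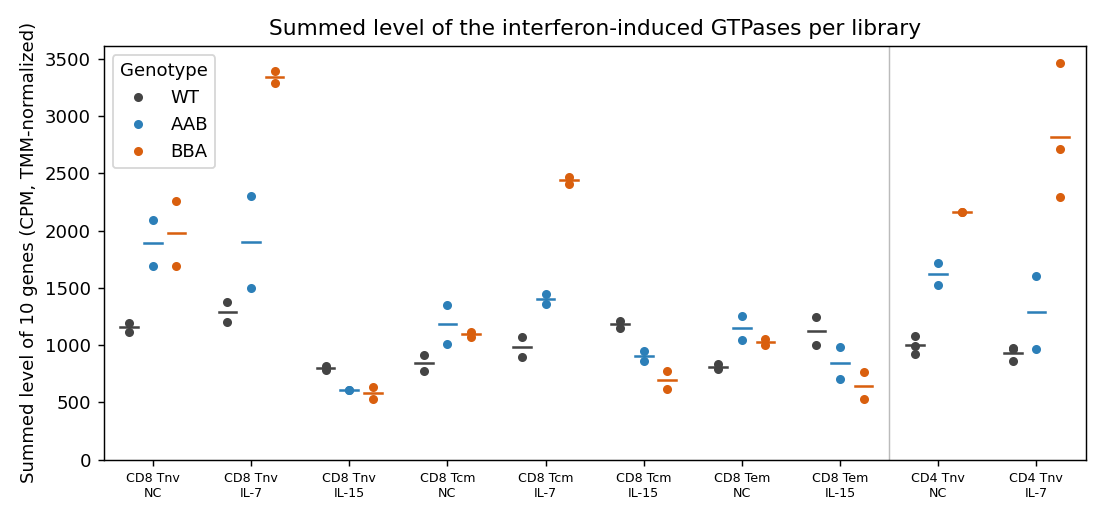
Summed level of the 10 genes (y axis, CPM after TMM scaling within the CD8+ and the CD4+ set) in each library (points) by cell state and culture (x axis) and genotype (colour), with the group mean as a dash; CD8+ cells are left of the grey line and CD4+ cells right of it. BBA libraries with IL-7 sit between 2288 and 3464 CPM, above all WT libraries, and BBA libraries with IL-15 between 527 and 773, below the WT libraries of the same cell state. These include the Tcm cultures with IL-7 and IL-15, which chose the genes.

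Per kilobase of exons the members differed widely in WT Tnv without cytokine. Ifi47 was at 109 ± 1.55 CPM per kb (SD, n = 2), Igtp at 105 ± 2.87 and Gbp2 at 72.4 ± 10.6. Irgm2 was at 24.4 ± 1.16, Irgm1 at 22.4 ± 1.11, Tgtp2 at 15.6 ± 1.62, Gbp6 at 10.3 ± 1.0, Iigp1 at 8.77 ± 0.745 and Gbp5 at 7.80 ± 0.450. Neighbours in this order whose difference was within the sum of their SDs were Ifi47 and Igtp, Irgm2 and Irgm1, Gbp6 and Iigp1, and Iigp1 and Gbp5. Gm12250 is left out because the annotations disagree on its exons.

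In the Tcm cultures that chose the genes, every member was higher in BBA than in WT with IL-7, and 8 of the 10 had negative fitted values with IL-15. Irgm1, a regulatory GTPase, was at 96.6 and 67.9 CPM in WT with IL-7, 131 and 141 in AAB and 305 and 319 in BBA. With IL-15 it was at 99.8 and 98.9, 78.6 and 104, and 86.4 and 77.0. Gm12250 was at 72.7 and 95.6 CPM in WT with IL-7 and 148 and 134 in BBA. With IL-15 it was at 97.1 and 97.2 in WT, 44.5 and 58.6 in AAB and 37.8 and 27.3 in BBA. For Irgm1 the BBA libraries lay above WT with IL-7 and below it with IL-15, where AAB overlapped WT, and for Gm12250 BBA did the same, while AAB overlapped WT with IL-7, at 85.6 and 102 CPM, and lay below it with IL-15. Igtp resembled Gm12250 with IL-15, at 354 and 351 CPM in WT, 181 and 217 in AAB and 156 and 124 in BBA. With IL-7 its WT libraries were far apart, at 145 and 361, against 570 and 521 in BBA. Fitted log2 fold changes of BBA over WT with IL-7 ran from 0.77 for Ifi47 to 4.30 for Iigp1, with a median of 1.57. With IL-15 they ran from -1.52 for Gm12250 to 0.10 for Gbp6, with a median of -0.42. The medians of all genes tested were -0.000910 and 0.0187. Other markers moved with the genotype in these cultures. The 5 B cell genes summed to 18.5 to 42.5 CPM in WT and 149 to 256 in BBA with IL-7, and to 93.0 to 174 and 192 to 404 with IL-15. The 4 memory and effector genes (Cd44, Il2rb, Eomes and Ccl5) summed to 2018 to 2573 CPM in WT and 734 to 904 in BBA with IL-7, and to 1625 to 1686 and 834 to 998 with IL-15. Their part in the differences was not tested.

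The same difference of differences was tested in Tnv, whose libraries the choice did not use. There, too, all 10 fitted values were negative, which means that BBA stood lower relative to WT with IL-15 than with IL-7. In edgeR's quasi-likelihood fit, with p-values adjusted after Benjamini and Hochberg over all genes tested, 6 of the 10 were called, against 1.05% of all genes tested: Gbp2 (log2 -3.35 ± 0.60 SE), Gm12250 (-2.57 ± 0.35), Irgm1 (-1.97 ± 0.28), Irgm2 (-1.95 ± 0.25), Tgtp2 (-1.85 ± 0.27) and Igtp (-1.71 ± 0.31). Their adjusted p-values ran from 0.00739 for Irgm2 to 0.0299 for Gbp2 and Igtp in that edgeR fit. Iigp1 (-2.88 ± 0.65), Gbp5, Gbp6 and Ifi47 did not pass. The size of the Gbp2 value rests in part on 1 library, WT replicate 2 with IL-15, the library that held Cd4. There Gbp2 was at 202 CPM, against 71.4 in replicate 1 and 75.9 and 58.2 in BBA. The median was -1.90, against -0.0292 over all genes tested. The number called rested on single libraries: without WT replicate 1 with IL-7 it was 0, without BBA replicate 1 with IL-15 it was 1, and without BBA replicate 2 with IL-7 it was 3. The IL-7 libraries of this test are male and the IL-15 libraries female in all genotypes. Markers of other cells also differed between the cultures. The 5 B cell genes summed to 8.80 to 15.5 CPM in WT and 30.2 to 50.6 in BBA with IL-7. With IL-15 they summed to 43.9 to 128 and 99.6 to 206. The 2 CD4 lineage genes summed to 0.568 to 0.930 CPM in WT with IL-7 and 10.4 to 319 with IL-15. The part of sex and of these markers in the difference was not tested.

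**Figure D2:**
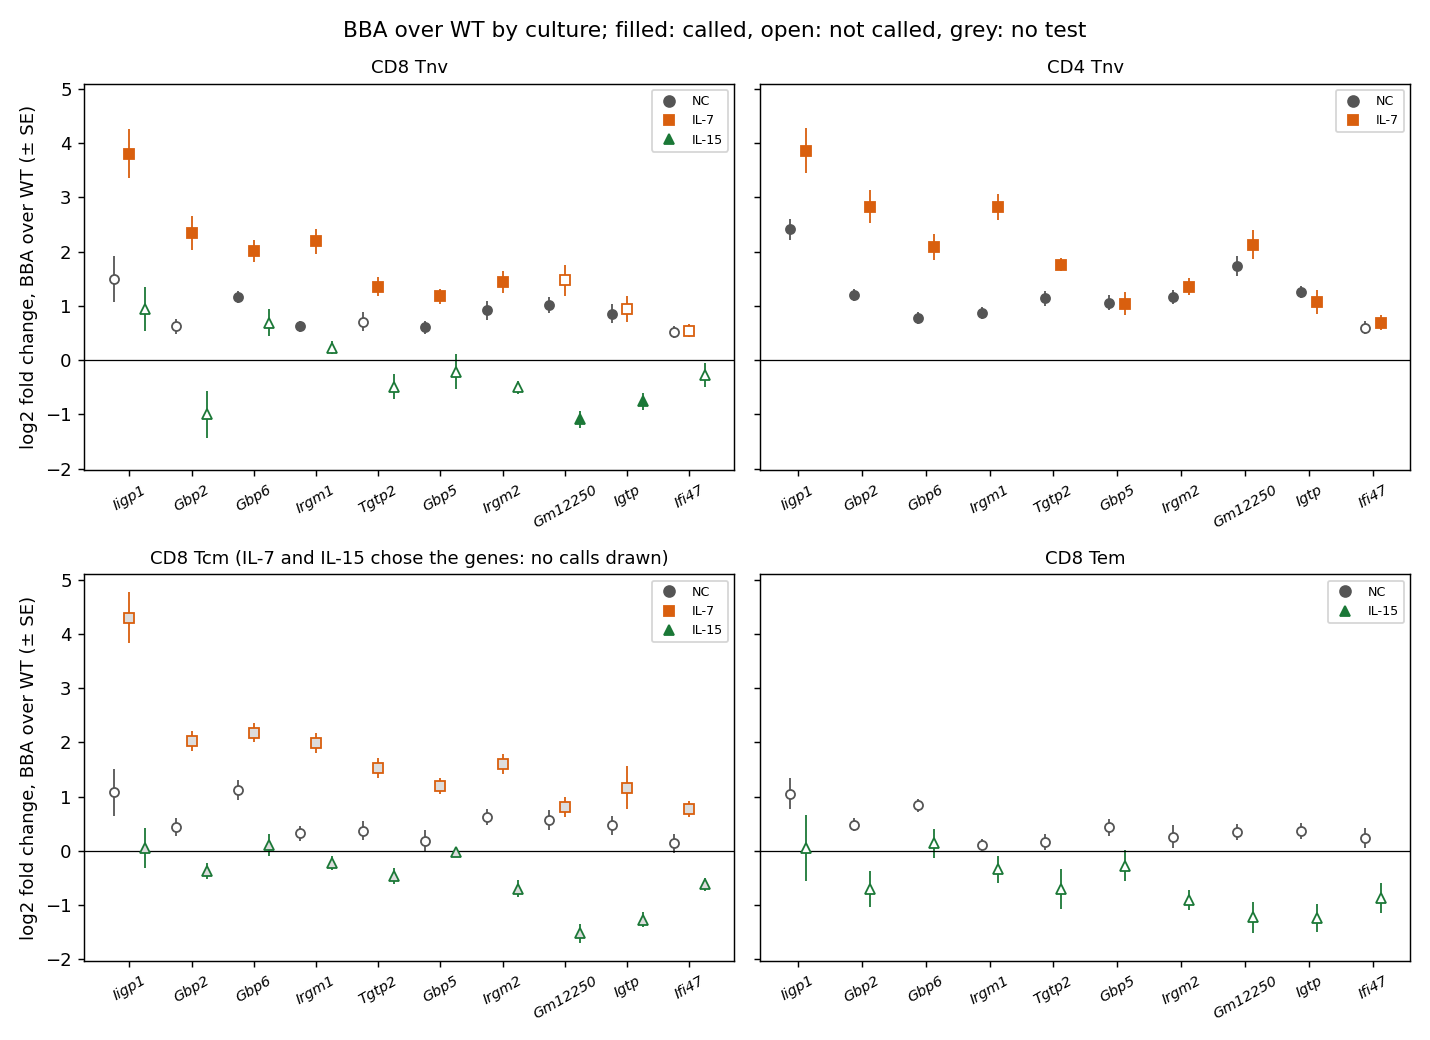
Fitted log2 fold change of BBA over WT with its SE (y axis) for the 10 genes (x axis), by culture (marker and colour), in 4 panels for CD8+ Tnv, CD4+ Tnv, CD8+ Tcm and CD8+ Tem; filled markers were called and open ones were not, and the grey-filled markers of Tcm with IL-7 and IL-15 have no test because these cultures chose the genes. In the tested cultures with IL-7 every point lies above 0, from 0.54 to 3.86, and with IL-15 most lie below it, down to -1.25. The grey-filled points, set by the choice, reach 4.30 and -1.52.

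Without cytokine, most members were already higher in BBA Tnv than in WT Tnv. Gbp6, a guanylate-binding protein, was at 65.4 and 56.9 CPM in WT, 117 and 110 in AAB and 149 and 124 in BBA, so that neither mutant overlapped WT. It rose by 2.24-fold in BBA (log2 1.16 ± 0.11 SE, edgeR adjusted p = 0.00333). Gm12250 was at 62.1 and 60.7 CPM in WT, 114 and 96.1 in AAB and 144 and 105 in BBA, and rose by 2.02-fold in BBA (edgeR adjusted p = 0.0151). In total 6 of the 10 rose in BBA (Gbp5, Gbp6, Gm12250, Irgm1, Irgm2 and Igtp), against 2.75% of all genes called in either direction. In AAB 1 of the 10 rose, Gbp6, against 0.164%. All 10 fitted values were positive in both mutants, with medians of 0.78 in BBA and 0.73 in AAB. The highest value in each was that of Iigp1, 1.5 ± 0.42 in BBA and 1.52 ± 0.41 in AAB, with edgeR adjusted p-values of 0.0921 and 0.305. Its libraries were far apart, at 54.1 and 48 CPM in WT, 189 and 104 in AAB and 205 and 84.4 in BBA. With the replicate number as a block, which paired these libraries, 9 were called in BBA and 7 in AAB. Without either WT library 1 was called in BBA, and without BBA replicate 1 it was 2, while the call in AAB was lost without any 1 of its 4 libraries.

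With IL-7, members of both GTPase families rose in BBA Tnv. Irgm1 was at 67.9 and 88.7 CPM in WT, 233 and 149 in AAB and 374 and 344 in BBA, with no overlap between the genotypes, a rise of 4.55-fold in BBA (log2 2.19 ± 0.24 SE, edgeR adjusted p = 0.0119). Gbp2 was at 86.9 and 97.9 CPM in WT, 324 and 161 in AAB and 455 and 491 in BBA, a rise of 5.08-fold in BBA (log2 2.34 ± 0.31, edgeR adjusted p = 0.0179). Iigp1, an effector GTPase of the vacuole, was at 16.8 and 33.3 CPM in WT, 142 and 66.5 in AAB and 325 and 380 in BBA. It rose by 14.0-fold in BBA (log2 3.81 ± 0.45, edgeR adjusted p = 0.0143). Ifi47 separated the genotypes least, at 411 and 480 CPM in WT, 471 and 423 in AAB and 640 and 669 in BBA, a log2 difference of 0.54 ± 0.12 that was not called. Of the 10, 7 rose in BBA (the others were Gm12250, Igtp and Ifi47), against 2.69% of all genes called. In AAB 0 of the 10 were called by edgeR, against 0.256%, with 8 at an unadjusted p under 0.05 and 3 called by DESeq2. The count for BBA fell to 0 without either WT library and to 1 without either BBA library. The count for AAB was 6 without AAB replicate 2, the AAB library nearer to WT. B cell markers moved with the genotype at a low level: the 5 genes summed to 8.80 and 15.5 CPM in the WT libraries, with 3 genes above 1 CPM in each, and to 30.2 to 50.6 in BBA. The 7 myeloid genes summed to 39.0 to 41.3 in WT and 42.8 to 57.0 in BBA. The 4 memory and effector genes summed to 244 to 259 CPM in WT, 264 to 392 in AAB and 359 to 426 in BBA. Marker genes of naive cells, 3 in number, were higher in BBA too, at 2500 to 2539 in WT and 2873 to 2903 in BBA. The part of these marker genes in the result was not tested.

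The change of the BBA effect from NC to IL-7 in Tnv was called for 2 of the 10, Gbp2 (log2 1.73 ± 0.37 SE, adjusted p = 0.0383) and Irgm1 (1.58 ± 0.28, adjusted p = 0.0201) in the edgeR fit, against 2.46% of all genes. The other 8 values were also positive and did not pass, from 0.04 ± 0.17 for Ifi47 and 0.10 ± 0.33 for Igtp to 0.87 ± 0.24 for Gbp6 and 2.32 ± 0.68 for Iigp1, which was the largest of the 10. With the replicate block 5 members were called, and without each of the 8 libraries in turn 0 or 1 was, 1 without WT replicate 2 or BBA replicate 2 with IL-7 and 0 without any of the others.

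With IL-15, 7 of the 10 fitted values of BBA over WT in Tnv were negative and 3 positive. Gm12250 was at 40.2 and 35.5 CPM in WT Tnv, 20.6 and 22.8 in AAB and 17.6 and 17.0 in BBA. It fell in BBA by 1.09 on the log2 scale (± 0.16 SE, edgeR adjusted p = 0.00697). Igtp was at 215 and 169 CPM in WT, 119 and 130 in AAB and 114 and 106 in BBA. It fell in BBA by 0.76 (± 0.15, edgeR adjusted p = 0.0238). For both genes every mutant library lay below every WT library. These 2 of the 10 were called in BBA, against 9.31% of all genes, a count that was not tested against that share. In AAB edgeR called 0 of the 10, against 0.726%, with 4 at an unadjusted p under 0.05 and 2 called by DESeq2 (1 with the block). In contrast Gbp6 and Iigp1 had positive fitted values in BBA, 0.69 ± 0.24 and 0.94 ± 0.40, that did not pass. Gbp2 was at 71.4 and 202 CPM in WT, 90.8 and 73.2 in AAB and 75.9 and 58.2 in BBA, so its negative value of -1.0 ± 0.43 came with the 202 CPM of replicate 2, the WT library that held Cd4. Without that library 2 members were called in BBA, as with it, and without either BBA library 1 was, while in AAB 1 was called without WT replicate 1. The change of the BBA effect from NC to IL-15 in Tnv, which shares the IL-15 libraries with the test against IL-7, was called for 3 of the 10, against 2.54% of all genes. They were Gm12250 (-2.12 ± 0.22), Igtp (-1.62 ± 0.26) and Irgm2 (-1.43 ± 0.23), with edgeR adjusted p-values of 0.0061, 0.0152 and 0.0156. All 10 values were negative. The block gave 5 calls, and without either WT library without cytokine 1 was left.

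**Figure D3:**
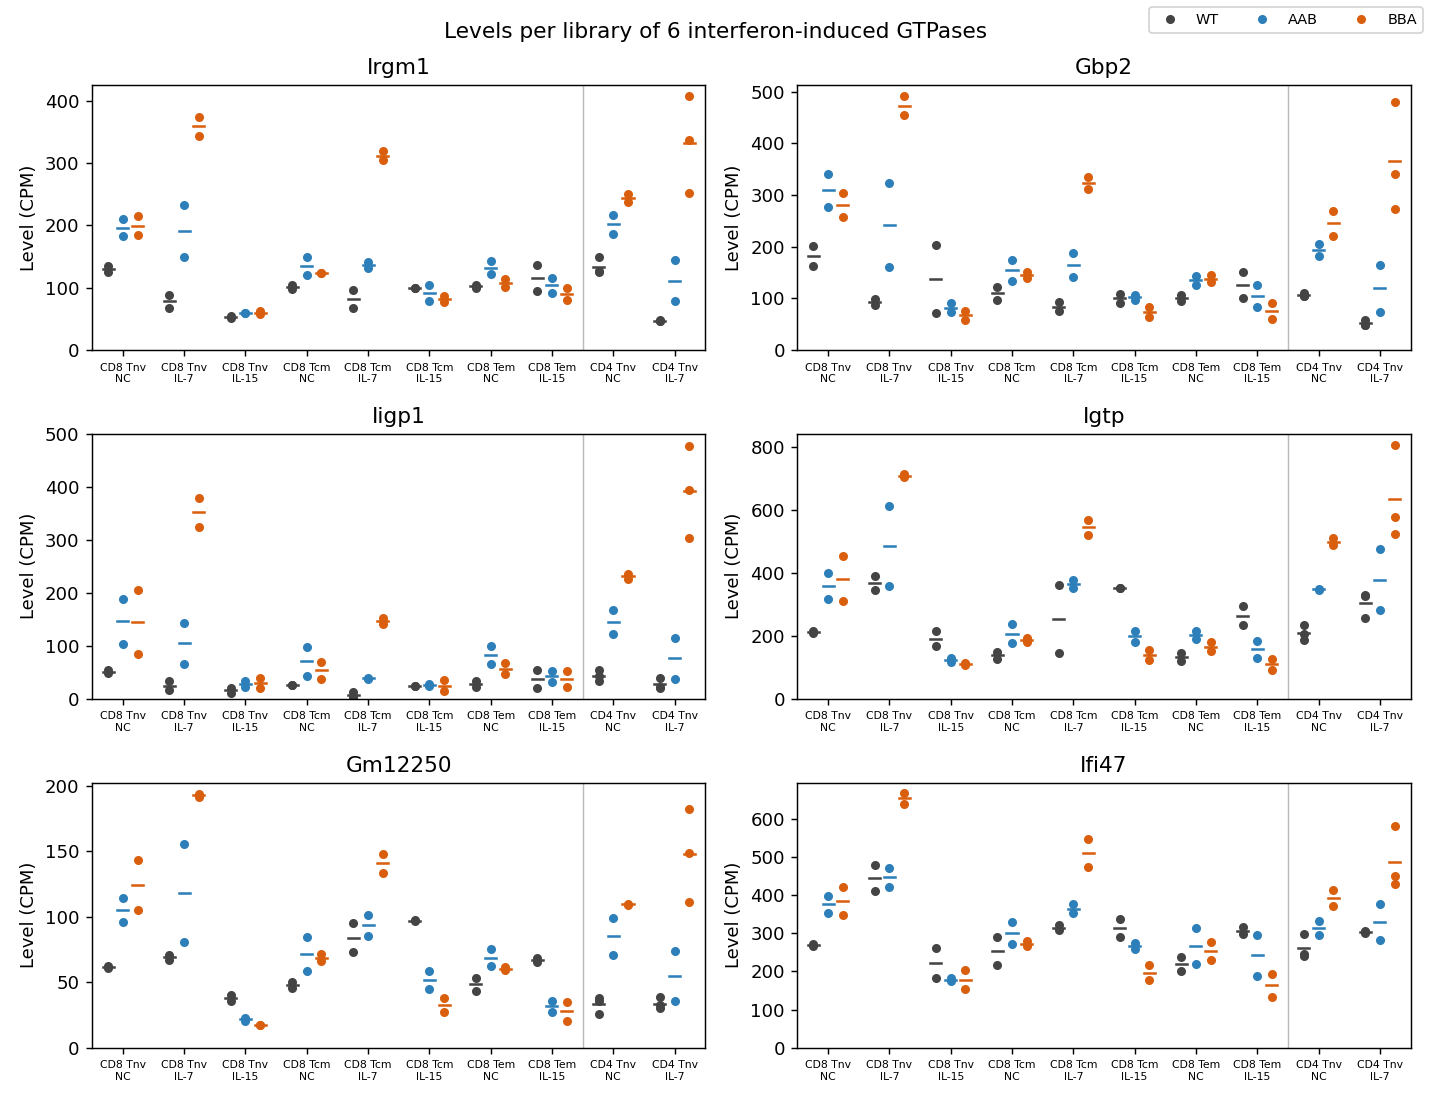
Level per library (y axis of each panel, CPM after TMM scaling within the CD8+ and the CD4+ set) of Irgm1, Gbp2, Iigp1, Igtp, Gm12250 and Ifi47 by cell state and culture (x axis) and genotype (colour), with group means as dashes; CD8+ cells are left of the grey line. In BBA with IL-7 the libraries of Irgm1, Gbp2 and Iigp1 lie above those of the other groups of the same cells, while the WT libraries of Gm12250 and Igtp lie above both mutants in all CD8+ cultures with IL-15. The Tcm cultures with IL-7 and IL-15 among these chose the genes.

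In naive CD4+ cells without cytokine 9 of the 10 members rose in BBA, against 1.13% of all genes called, and 4 rose in AAB (Gbp2, Gm12250, Igtp and Iigp1), against 0.355%. Iigp1 was at 54.4, 33.0 and 43.7 CPM in WT, 167 and 122 in AAB and 236 and 227 in BBA, 3 groups without overlap. It rose by 5.31-fold in BBA (log2 2.41 ± 0.20 SE, edgeR adjusted p = 0.00134) and by 3.31-fold in AAB (1.73 ± 0.20, edgeR adjusted p = 0.01). Gm12250 was at 35.4, 25.6 and 38.2 CPM in WT, 99.3 and 71.1 in AAB and 109 and 110 in BBA, and rose by 3.32-fold and 2.57-fold. Only Ifi47 was not called in BBA, with a log2 difference of 0.60 ± 0.12 and an edgeR adjusted p of 0.0666. The 4 memory and effector genes summed to 49.5 to 75.0 CPM in WT, 57.4 to 65.6 in AAB and 97.25 to 138 in BBA. The 4 NK cell genes summed to 0.485 to 0.670, 0.999 to 1.255 and 1.86 to 3.40. The 7 myeloid genes were lower in BBA, at 32.9 to 36.8 CPM against 40.7 to 44.0 in WT. The part of these markers was not tested. The count in AAB was 8 with the block, 0 without AAB replicate 1, and 1 without WT replicate 1 or WT replicate 2, and that in BBA 6 without BBA replicate 2.

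With IL-7, all 10 members rose in BBA CD4+ cells, against 5.50% of all genes called. Iigp1 had the highest and Ifi47 the lowest fold change, in CD4+ and in CD8+ Tnv alike. Irgm1 was at 46.6, 48 and 46.3 CPM in WT, 145 and 77.8 in AAB and 336, 407 and 252 in BBA, without overlap, a rise of 7.09-fold in BBA (log2 2.83 ± 0.24 SE, edgeR adjusted p = 0.000167). Iigp1 was at 22.7, 20.8 and 38.9 CPM in WT, 116 and 38.0 in AAB and 394, 477 and 304 in BBA, a rise of 14.5-fold in BBA (log2 3.86 ± 0.42, edgeR adjusted p = 0.000646), and its AAB libraries overlapped WT. Tgtp2, an IRG effector, was at 22.4, 19.4 and 24.0 CPM in WT, 35.5 and 31.3 in AAB and 82.0, 71.8 and 66.3 in BBA. This was a rise of 3.38-fold with the smallest adjusted p of the members, 3.98e-05. The smallest change was that of Ifi47, 1.62-fold. In AAB 0 of the 10 were called by edgeR, against 0.611%, with 6 at an unadjusted p under 0.05, 2 called by DESeq2 and 3 with the block, and 1 without AAB replicate 3. Leaving out any library left 7 to 10 calls in BBA. Markers of other cells moved with the genotype at low levels. The 5 B cell genes summed to 6.06 to 9.79 CPM in WT and to 55.7, 12.7 and 26.1 in BBA replicates 1, 2 and 3, and the 4 NK cell genes to 0.184 to 0.741 in WT and 4.13, 1.36 and 35.4 in BBA. BBA replicate 2, the lowest of the 3 in both, had the highest summed level of the members. Its sums of 12.7 and 1.36 CPM were still above those of every WT library. All 10 were called without BBA replicate 1 and likewise without BBA replicate 3. The 4 memory and effector genes summed to 44.6 to 50.8 CPM in WT, 31.6 to 39.1 in AAB and 50.55 to 98.9 in BBA. The part of these markers in the result was not tested. In CD4+ cells the change of the BBA effect from NC to IL-7 was called for 1 of the 10, Irgm1 (log2 1.95 ± 0.30, edgeR adjusted p = 0.0042), against 1.11% of all genes (3 with the block, and also 2 without WT replicate 2 and 3 without BBA replicate 3 with IL-7). For Igtp (-0.19 ± 0.28), Gbp5 (-0.02 ± 0.28) and Ifi47 (0.09 ± 0.19) the change was smaller than its SE.

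The mutants were compared with each other in naive cells. Without cytokine 0 of the 10 were called in CD8+ Tnv (against 0.523% of all genes; 1 at an unadjusted p under 0.05, 0 by DESeq2) or in CD4+ Tnv (against 0.0788%; 6 at an unadjusted p under 0.05, 0 by DESeq2) in edgeR. The median difference of BBA over AAB was 0.0488 on the log2 scale in CD8+ and 0.35 in CD4+ cells, where all 10 values were positive. With IL-7, 7 of the 10 were higher in BBA than in AAB in CD4+ cells, against 1.56% of all genes. They were Iigp1 (log2 2.36 ± 0.45 SE), Gbp2 (1.62 ± 0.33), Irgm1 (1.58 ± 0.26), Gbp6 (1.53 ± 0.27), Gm12250 (1.44 ± 0.30), Irgm2 (1.25 ± 0.19) and Tgtp2 (1.14 ± 0.13), with edgeR adjusted p-values from 0.00259 for Tgtp2 to 0.0497 for Gm12250. Without AAB replicate 3, the AAB library nearer to WT, 1 was called, and without BBA replicate 1 it was 2. In CD8+ Tnv with IL-7 all 10 values were positive (median 0.79) but 0 were called by edgeR, against 0.148%, with 9 at an unadjusted p under 0.05, 6 called by DESeq2 and 2 with the block. Without AAB replicate 1 there were 5 calls, and without AAB replicate 2 there was 1.

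In memory and effector cells without cytokine no member was called in either mutant by edgeR. In Tcm, Gbp6 was at 29.6 and 37.0 CPM in WT, 77.7 and 59.7 in AAB and 65.4 and 76.0 in BBA, with the mutants above WT, and log2 differences of 1.07 ± 0.18 SE in AAB and 1.11 ± 0.18 in BBA that were not called. In edgeR 0 of the 10 were called in Tcm in BBA (against 0.277% of all genes; 6 at an unadjusted p under 0.05, 2 by DESeq2, 3 with the block) or in AAB (against 0.0395%; 8 at an unadjusted p under 0.05, 2 by DESeq2, 3 with the block). In Tem, likewise, 0 were called in BBA (against 0.206%; 5 at an unadjusted p under 0.05, 2 by DESeq2, 1 with the block) or in AAB (against 0.0197%; 8 at an unadjusted p under 0.05, 3 by DESeq2, 3 with the block). All 10 fitted values were positive in each of these 4 comparisons, with medians from 0.35 for BBA in Tem to 0.49 for AAB in Tem. The value furthest from 0 in Tem was that of Iigp1 in AAB, 1.60 ± 0.29 at 101 and 66.0 CPM against 21.8 and 33.8 in WT.

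In Tem with IL-15 no member passed the test in either mutant. Igtp was at 235 and 294 CPM in WT, 185 and 129 in AAB and 126 and 92.4 in BBA, and Gm12250 at 65.2 and 68.3, 35.8 and 27.2, and 35.1 and 20.6, both with the WT libraries above all mutant libraries. Their log2 differences in BBA were -1.25 ± 0.26 SE and -1.23 ± 0.28, with edgeR adjusted p-values of 0.0784 and 0.102. In edgeR 0 of the 10 were called in BBA (against 1.76% of all genes; 4 at an unadjusted p under 0.05, 4 by DESeq2, 4 with the block) or in AAB (against 0.0196%; 3 at an unadjusted p under 0.05, 3 by DESeq2, 1 with the block). The change of the BBA effect from NC to IL-15 in Tem was negative for all 10 (median -1.06), and 0 were called by edgeR, against 0.00954% of all genes, with 6 at an unadjusted p under 0.05, 3 called by DESeq2 and 4 with the block.

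WT cells alone were compared between each cytokine culture and NC, where culture itself and cytokine cannot be told apart. In WT Tnv, Gbp6 was lower with IL-7, at 31.9 and 32.5 CPM against 65.4 and 56.9 (log2 -0.92 ± 0.12 SE, edgeR adjusted p = 0.00217). Irgm1 was lower too, at 67.9 and 88.7 against 126 and 135 (-0.73 ± 0.13, edgeR adjusted p = 0.00675). Igtp was higher, at 345 and 391 CPM against 216 and 208 (0.80 ± 0.12, edgeR adjusted p = 0.0042), as was Ifi47, at 411 and 480 against 272 and 267 (0.73 ± 0.16, edgeR adjusted p = 0.0157). So 4 of the 10 were called, 2 in each direction, against 20.3% of all genes, and 2 without WT replicate 2 of the NC group. The IL-7 libraries of this comparison are male and the others female. The 5 B cell genes summed to 8.80 to 15.5 CPM in these WT libraries with IL-7 and to 54.7 to 135 in NC. The part of these differences was not tested. In WT CD4+ cells Irgm1 was lower with IL-7, at 46.6, 48 and 46.3 CPM against 125, 126 and 149 (log2 -1.50 ± 0.09, edgeR adjusted p = 6.06e-06). Gbp6 was lower by 3.50-fold and Gbp2 by 2.05-fold. These 3 of the 10 were called, against 16.8% of all genes (5 without WT replicate 2 without cytokine or WT replicate 3 with IL-7). Igtp, at 207, 186 and 236 CPM without cytokine and 257, 328 and 329 with IL-7, had a log2 difference of 0.55 ± 0.12 that fell short of 1.5-fold. In BBA CD4+ cells the genes that fell with IL-7 in WT were at 336, 407 and 252 CPM with IL-7 against 238 and 250 without cytokine for Irgm1, and at 70.6, 88.1 and 61.7 against 94.5 and 113 for Gbp6. The WT libraries are shared between these comparisons and those of BBA with WT.

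With IL-15, 5 of the 10 were called lower than in NC in WT Tnv, against 6.15% of all genes: Gbp6 (4.80-fold), Iigp1 (3.05-fold), Tgtp2 (2.68-fold), Irgm1 (2.41-fold) and Gm12250 (1.59-fold), with edgeR adjusted p-values from 0.00103 for Gbp6 to 0.039 for Iigp1. Irgm1 was at 53.9 and 51.6 CPM with IL-15, and Gbp6 at 13.6 and 11.3. Leaving out WT replicate 2 without cytokine left 1 call, and leaving out WT replicate 1 without cytokine left 3. In WT Tem with IL-15 the values leaned up (9 of 10 positive, median 0.40), with Igtp at 121 and 145 CPM without cytokine and 235 and 294 with it (log2 1.02 ± 0.16, edgeR adjusted p = 0.0545). There 0 of the 10 were called by edgeR, against 1.64% of all genes, with 5 at an unadjusted p under 0.05 and 1 called by DESeq2, and without WT replicate 1 with IL-15 there were 5 calls and without WT replicate 2 with IL-15 there were 2. With the replicate block 2 members were called in WT Tem. Gm12250, which was lower with IL-15 in WT Tnv, was at 43.5 and 53.6 CPM in WT Tem without cytokine and 65.2 and 68.3 with IL-15. The difference between the cell states was not tested.

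**Figure D4:**
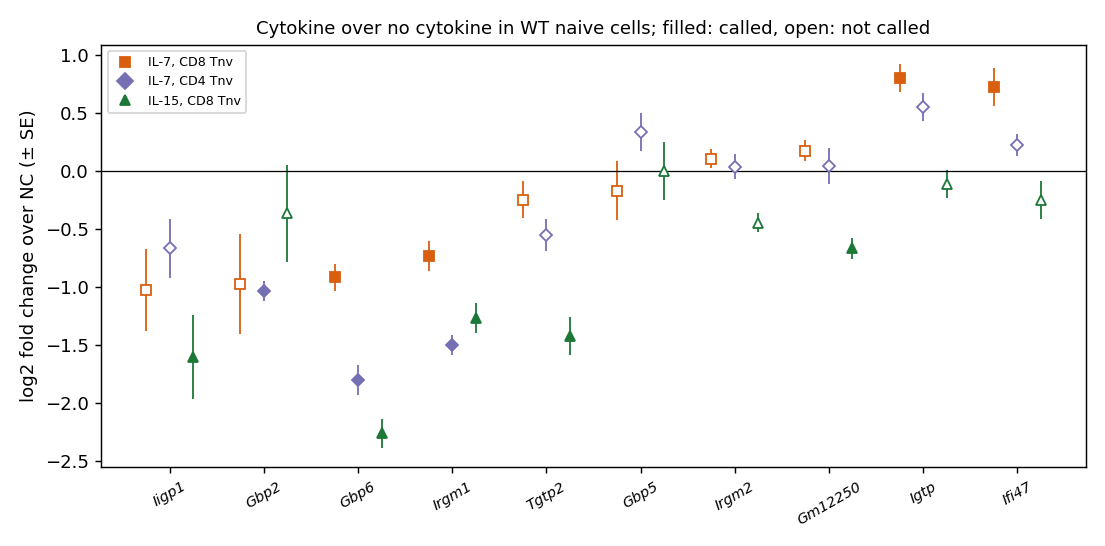
Fitted log2 fold change of cytokine over no cytokine with its SE (y axis) in WT naive cells for the 10 genes (x axis); squares are IL-7 in CD8+ Tnv, diamonds IL-7 in CD4+ Tnv and triangles IL-15 in CD8+ Tnv, and filled markers were called. Gbp6 and Irgm1 lie below 0 in all 3, from -2.26 to -0.73, and Igtp and Ifi47 lie above 0 with IL-7.

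In Tcm, AAB cells were used for the cytokine comparison because the WT and BBA libraries chose the genes. With IL-7 Igtp rose from 238 and 176 CPM to 377 and 353 (log2 0.83 ± 0.16 SE, edgeR adjusted p = 0.0163) and Irgm2 rose by 1.55-fold, while Gbp6 fell from 77.7 and 59.7 to 28.9 and 33.2 (-1.13 ± 0.22, edgeR adjusted p = 0.0175). These 3 of the 10 were called against 9.99% of all genes, and 0 without either AAB library with IL-7. Of the AAB Tcm libraries with IL-7, replicate 1 was female and replicate 2 male, while those without cytokine were female. The 5 B cell genes summed to 45.6 to 84.4 CPM with IL-7 and 102 to 265 without cytokine. Their part and that of sex were not tested. With IL-15, Gbp6 fell by 2.68-fold and Tgtp2 by 1.94-fold, 2 of the 10 against 2.89% of all genes, and all 10 fitted values were negative. Without AAB replicate 1 of either culture there were 0 calls, and without AAB replicate 2 with IL-15 there was 1.

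Between cell states without cytokine, WT Tcm held less than WT Tnv of Gbp6 (29.6 and 37.0 against 65.4 and 56.9 CPM, edgeR adjusted p = 0.0403) and Irgm2 (53.5 and 53.5 against 93.1 and 87.0, edgeR adjusted p = 0.0403). These 2 of the 10 were called against 2.78% of all genes, all 10 values were negative, and the block gave 5 calls. Without WT Tnv replicate 1, WT Tnv replicate 2 or WT Tcm replicate 1 there were 0. Between Tem and Tcm 0 of the 10 were called by edgeR, against 1.95% of all genes, 1 at an unadjusted p under 0.05, 0 by DESeq2, and fitted values from -0.17 to 0.44.

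In the retrovirus libraries, Iigp1 was at 7.80 and 15.3 CPM with the empty vector and 0.303 and 0.460 in those labelled CA-STAT5A, and it fell by 4.93 on the log2 scale (± 0.54 SE, edgeR adjusted p = 0.00606), on 5 counts in each library labelled CA-STAT5A against 101 and 186. It was 1 member of the 10 called, against 6.63% of all genes, and DESeq2 called 3. Gbp6 (-1.24 ± 0.32) and Tgtp2 (-0.94 ± 0.23) had edgeR adjusted p-values of 0.0728 and 0.0658, and Irgm2 and Ifi47 had values of 0.06 ± 0.15 and -0.07 ± 0.16. Without empty vector replicate 1 there were 4 calls, and without CA-STAT5A replicate 2 there were 3. These libraries lack the T cell genes named above, and the summed level of the 4 NK cell markers was 9010 to 9624 CPM in those labelled CA-STAT5A and 4461 to 4907 with the empty vector, while the B cell markers summed to 9.34 to 25.8 and 89.5 to 146. The part of these differences in the result was not tested.

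The other genes of the pathway were taken from 3 lists. Irf1, a transcription factor induced by interferon-gamma, rose in BBA with IL-7 in CD8+ Tnv (log2 1.19 ± 0.14 SE, edgeR adjusted p = 0.0153) and in CD4+ cells (1.10 ± 0.12, edgeR adjusted p = 0.000735). Stat2 and Irf9, of the type I interferon complex, rose in the same cultures, by log2 0.73 and 0.83 in Tnv and by 0.82 and 1.09 in CD4+ cells. In WT cells Irf1 fell with IL-7, by 0.87 on the log2 scale in Tnv and by 0.88 in CD4+ cells. With IL-15 the BBA effect on Irf1 in Tnv was 0.17 ± 0.13 and was not called.

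Ifng, the ligand, was at low levels in naive cells. Its level was at most 0.451 CPM in the 6 Tnv libraries with IL-7, at most 0.519 in the CD4+ libraries with IL-7, and at most 0.608 in Tnv with IL-15, and in Tnv without cytokine it was below 1 CPM except for 8.32 in replicate 1 of WT. In Tcm Ifng was at 0.153 to 18 CPM over all genotypes and cultures, and with IL-7 at 2.31 and 0.153 in WT, 0.321 and 0.192 in AAB and 1.62 and 6.82 in BBA. In Tem without cytokine Ifng was at 77.4 and 92.9 CPM in WT, 43.2 and 44.7 in AAB and 88.0 and 36.4 in BBA. Ifngr2, the signalling chain of its receptor, was at 90.3 and 112 CPM in WT Tnv with IL-7 and 40.3 and 66.6 in BBA, a log2 difference of -0.94 ± 0.36 that was not called. Ifngr1, which binds the ligand, was at 724 and 655 CPM in WT Tnv with IL-7, 301 and 396 in AAB and 210 and 311 in BBA, and fell in BBA by 1.42 on the log2 scale (edgeR adjusted p = 0.0263). In WT Tnv Ifngr1 was higher with IL-7 than in NC, where it was at 198 and 221 CPM. In WT CD4+ cells it was at 467, 529 and 449 CPM with IL-7 and 133, 81.4 and 114 in NC. The log2 differences were 1.72 and 2.15. Socs1, an inhibitor of JAK signalling that restrains interferon responses, was at 104 and 102 CPM in WT Tnv with IL-15, 62.1 and 65.9 in AAB and 38.6 and 41.8 in BBA, and fell in BBA by 1.33 (edgeR adjusted p = 0.00194). In CD4+ cells with IL-7 Socs1 was at 81.8, 78.9 and 83.9 CPM in WT and 41.0, 43.0 and 37.2 in BBA and fell by 1.0 (edgeR adjusted p = 8.48e-05), while in CD8+ Tnv with IL-7 it was at 108 and 123 in WT and 122 and 123 in BBA. Jak1 and Jak2, the kinases of the receptor, were not called in BBA with IL-7, with log2 differences of 0.50 and 0.15 in Tnv and 0.35 and -0.40 in CD4+ cells.

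Counts in each list are given beside the share of all genes called in that comparison, which was 2.69% for BBA Tnv with IL-7. There 6 of the 13 other interferon-induced GTPases tested rose and 0 fell, among them Gbp10 (log2 6.77), Gbp9 (1.73) and Gbp7 (1.60), and their median was 1.60. In the interferon-gamma list 4 of 18 rose and 1 fell (median 0.53), with Cd274, the ligand of the inhibitory receptor PD-1, at 2.11. In the type I list 8 of 18 rose and 0 fell (median 0.84), led by Ifit3 (3.02), Rtp4 (2.60) and Zbp1 (1.97). The median of all genes in that comparison was 0.00696. In BBA CD4+ cells with IL-7 (5.50% of all genes) the counts were 9 of 12 GTPases up, 6 of 17 up and 1 down, and 8 of 18 up. In WT Tnv with IL-7 (20.3%), 6 of 12 GTPases, 9 of 18 and 11 of 18 fell, and 1, 3 and 0 rose. In WT CD4+ Tnv with IL-7 (16.8%) 7 of 11, 6 of 16 and 16 of 21 fell, and 1, 4 and 0 rose. With IL-15 in WT Tnv (6.15%) 6 of 12, 6 of 18 and 11 of 18 were lower than in NC and 0 were higher. With IL-15 in BBA Tnv (9.31%) 2 of 10 GTPases rose, F830016B08Rik (log2 2.50) and Gbp8 (0.69), 1 of 16 genes of the interferon-gamma list fell (Socs1), and 1 of 16 of the type I list rose (Ifit1, 1.67). Without cytokine BBA Tnv (2.75%) had 0 of 14, 0 of 18 and 1 of 21 called (Rsad2, 1.46). BBA CD4+ Tnv (1.13%) had 7 of 14, 5 of 17 and 2 of 21, all up, led by Gm4951 (3.92). These lists were chosen with earlier results of these data known.

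Across the 48 CD8+ libraries the 10 members had Pearson correlations of log2(CPM + 1) between pairs that ran from 0.519 (Gbp6 and Igtp) to 0.943 (Irgm2 and Igtp, whose reads may be shared) and a median of 0.812 over 45 pairs. Among 9936 genes with a mean of at least 5 CPM, the other genes most like the members' mean included Parp9 (0.914), Trim21 (0.905), Dtx3l (0.889), Cd274 (0.886), Stat2 (0.862), Parp14 (0.845) and Irf1 (0.842). Irgm1 (0.957) and Tgtp2 (0.956) were the members nearest to that mean and Gbp5 (0.840) the farthest, and each member is itself part of it. The 48 libraries include the Tcm cultures with IL-7 and IL-15 that chose the genes, so these values are in part set by that choice. The libraries also share genotypes, cultures and scaling, so these values describe this set of libraries only.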

How the data were processed

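Gene counts of T cell RNA-seq libraries were taken as deposited, in 3 tables for CD8+, CD4+ and retrovirus libraries. The authors aligned single-end reads with TopHat2 and made the counts per gene with HTSeq. The study's methods name mm10 and the submitters' processing notes name mm9. The annotation and the strand setting are not given in the sources used here. Rows that name no gene, 67% to 68.4% of the retrovirus tables' counts, were left out. Groups came from the labels, and 2 of 69 samples, whose title and treatment label disagree, entered no comparison.

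CPM values were computed from the counts with TMM factors within a table. Each condition was fitted with its 3 genotypes by edgeR 4.0.16 (R 4.3.3), with TMM, quasi-likelihood F tests and a filter that maximises the Jaccard similarity of replicates (thresholds 40.2 to 124, 9488 to 10485 genes tested), after the study's methods. Calls needed more than 1.5-fold and a Benjamini-Hochberg adjusted p under 0.05. Differences of differences were fitted over both cultures together. Alternatives were a replicate block, no filter, filterByExpr, DESeq2 1.42.0, its size factors, the edgeR 4 quasi-likelihood method, 1 fit per table, and leaving out each library. The text names the 10 members, the interferon receptor, kinases, factors and Socs1, up to 3 called genes of largest change per list, and the 8 genes most alike, with 1 gene of these sets not reported here. Members and lists were chosen with earlier results of these data known. In all, 8 comparisons (changes of the BBA effect from NC, and BBA over AAB) were added after the data were seen.

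On simulated counts with 200 changed genes, calls recovered 100%, 76%, 100% and 29% of genes changed by 1 on the log2 scale, and 100%, 99%, 100% and 100% of those changed by 2, for BBA over WT in Tnv NC, Tnv IL-7 and CD4+ Tnv IL-7 and for the BBA effect in IL-15 minus IL-7 in Tnv, with 12 to 14 false calls each. The changed genes were drawn from those with an expected mean above 200 counts, so recovery at lower counts was not measured. Replicate libraries differed by more than counting noise. The study describes the replicates as biological, from separate mice, and the labels do not tie a library to an animal. Same-numbered libraries deviated together (every correlation over 0.1) in each condition except Tcm with IL-7, where correlations ran from -0.0678 to 0.300. The fits reported have no block, after the study's methods, and the value with the block is given beside a result where it changes the count by over 1.5 times. Library totals of 5926139 to 34118295 counts limit precision for the least abundant members, and counts carry counting error beside the spread between libraries.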

Additional observations from a re-analysis of the deposited data

Results flagged for a closer look

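The effect of the BBA genotype differed between cultures of the same cells, by a test of the difference itself in edgeR with adjustment over all genes, for the following genes. In CD8+ Tnv, subtracting the BBA effect in IL-7 from that in IL-15 gave -3.35 for Gbp2, -2.57 for Gm12250, -1.97 for Irgm1, -1.95 for Irgm2, -1.85 for Tgtp2 and -1.71 for Igtp on the log2 scale. The BBA effect with IL-7 minus that without cytokine in CD8+ Tnv was 1.73 for Gbp2 and 1.58 for Irgm1. With IL-15 minus without cytokine it was -2.12 for Gm12250, -1.62 for Igtp and -1.43 for Irgm2. In CD4+ Tnv the effect with IL-7 minus that without cytokine was 1.95 for Irgm1. The Gbp2 value of IL-15 minus IL-7 rests in part on WT Tnv replicate 2 with IL-15, where Gbp2 was at 202 CPM against 71.4 in replicate 1. These contrasts share libraries with each other, and in CD8+ Tnv the IL-7 libraries are male and the others female, so sex and IL-7 cannot be told apart. The summed B cell genes were also lower in the Tnv IL-7 libraries than in the other Tnv cultures of the same genotype. No group has 4 or more libraries, so a single library far from the others was not tested for.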

How the results depend on the processing

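The counts of members called depended on the processing. Directions were followed only for members called in the fit reported, where a change of sign is unlikely. The directions of members that were not called were not followed. Of 953 alternative log2 values of single members 0 changed sign against a call, 777 kept their side of the threshold and 176 lost it. Of 236 alternative counts 166 were within 1.5 times the count reported.

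Without the filter on low counts the counts were 6 and 5 for AAB over WT in Tnv NC and Tnv IL-7, 5 and 3 for BBA and AAB in Tnv IL-15, 2 each for BBA and AAB in Tcm NC and in Tem NC, 4 for BBA in Tem IL-15, 8 and 3 for AAB in CD4+ NC and IL-7, 1 for IL-15 over NC in WT Tem, 6 for Tcm over Tnv, 10 for the BBA effect in IL-15 minus IL-7 in Tnv, 3 for CA-STAT5A, 5 and 7 for IL-7 and IL-15 minus NC in Tnv, 3 for IL-7 minus NC in CD4+, and 8 and 1 for BBA over AAB in Tnv IL-7 and CD4+ NC. DESeq2 called 6, 3 and 2 for AAB in Tnv NC, IL-7 and IL-15, 2 each for BBA and AAB in Tcm NC, 2 and 3 for BBA and AAB in Tem NC, 4 and 3 in Tem IL-15, 8 and 2 for AAB in CD4+ NC and IL-7, 1 for IL-15 over NC in WT Tem, 5 for Tcm over Tnv, 3 for CA-STAT5A, 5 for IL-15 minus NC in Tnv, 3 in Tem, 3 for IL-7 minus NC in CD4+ and 6 for BBA over AAB in Tnv IL-7. In 1 fit over all libraries of a table the counts were 3 and 0 for BBA and AAB in Tnv NC, 2 for AAB in Tnv IL-7, 1 for BBA in Tcm NC, 5 for BBA in Tem IL-15, 1 each for AAB in CD4+ NC and IL-7, 3 for IL-15 over NC in WT Tnv, 1 for IL-15 minus NC in Tem and 3 for BBA over AAB in Tnv IL-7. With filterByExpr they were 4 and 1 for BBA and AAB in Tnv IL-15, with the edgeR 4 method 1 for IL-15 over NC in WT Tem and 2 for IL-7 minus NC in CD4+, and with DESeq2's size factors 3 for the latter. The cause was not tested.

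With the replicate block, the counts were 7 and 1 for AAB in Tnv NC and IL-15, 3 each for BBA and AAB in Tcm NC, 1 and 3 for BBA and AAB in Tem NC, 4 and 1 in Tem IL-15, 8 and 3 for AAB in CD4+ NC and IL-7, 2 for IL-15 over NC in WT Tem, 5 for Tcm over Tnv, 5 each for IL-7 and IL-15 minus NC in Tnv, 4 for IL-15 minus NC in Tem, 3 for IL-7 minus NC in CD4+ and 2 for BBA over AAB in Tnv IL-7. The block moved no other count by over 1.5 times. The cytokine responses of WT Tnv and AAB Tcm were not paired (correlations from -0.0365 to 0.345 and from 0.000769 to 0.643), and those of WT Tem and WT CD4+ rest on 1 pair of groups. No paired analysis was possible because a title lacks its number in the retrovirus libraries.

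Leaving out 1 library gave 1 to 7 calls for BBA in Tnv NC, 0 to 0 for AAB, 0 to 1 and 0 to 6 in Tnv IL-7, 1 to 2 and 0 to 1 in Tnv IL-15, 6 to 10 and 0 to 6 in CD4+ NC, 7 to 10 and 0 to 1 in CD4+ IL-7, and 0 to 0 in Tcm NC, Tem NC and Tem IL-15. It gave 2 to 4 for IL-7 and 1 to 6 for IL-15 over NC in WT Tnv, 0 to 5 in WT Tem, 3 to 5 in WT CD4+, 0 to 3 for both cytokines in AAB Tcm, 0 to 2 for Tcm over Tnv, 0 to 0 for Tem over Tcm, and 1 to 4 for CA-STAT5A. For the changes of the BBA effect it gave 0 to 6 for IL-15 minus IL-7, 0 to 1 for IL-7 minus NC and 1 to 4 for IL-15 minus NC in Tnv, 0 to 0 in Tem and 1 to 3 in CD4+, and for BBA over AAB 0 to 5 in Tnv IL-7, 1 to 7 in CD4+ IL-7 and 0 to 0 without cytokine. With 2 libraries a group such fits leave a group with 1 library, assumed to vary like the others. Depth limits Iigp1 and Tgtp2 in the retrovirus libraries.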

Other observations

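A pair of CD4+ naive libraries entered no comparison because their titles name cells without cytokine and their treatment label names IL-7. The members summed to 1327 CPM in the library with AAB in its title and 1351 in that with BBA. Irgm1 was at 175 and 163 CPM, Gbp2 at 172 and 170, Igtp at 279 and 294 and Iigp1 at 62.8 and 109 in these libraries, in that order, and Ifngr1 at 123 and 97.6.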
